A study of Mus musculus with 4 samples.

Results

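The protamine and transition protein genes of the mouse, Prm1, Prm2, Prm3, Tnp1 and Tnp2, were followed through deposited lists of ATAC-seq peaks. The 5 genes were taken by symbol from a RefSeq annotation of GRCm38.p6 (mm10), and all 5 were found among 49939 annotated genes on the autosomes, X and Y, of which 21883 are protein-coding. ATAC-seq uses the Tn5 transposase to insert sequencing adapters into accessible DNA, so a peak marks a stretch where insertions pile up above the local background. The cells were pachytene spermatocytes, meiotic prophase cells isolated from mouse testis. The mock group (2 libraries, mock 1 and mock 2) received the DMSO vehicle, and the BMH-21 group (2 libraries) received 2.5 uM BMH-21, a DNA-binding inhibitor of RNA polymerase I, for 12 h. The labels give no strain, genotype or age, and the series' design calls the 2 libraries of a group biological replicates.

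Protamines are small arginine-rich proteins that replace histones in the spermatid nucleus and compact the paternal genome. Transition proteins occupy the chromatin between the removal of histones and the deposition of protamines. In the textbook order, these genes are transcribed in round spermatids after meiosis and their mRNAs are stored until the spermatid elongates, so pachytene spermatocytes are the stage before that transcription.

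Peak numbers were 109230 (mock 1), 117905 (mock 2), 51234 (BMH-21 1) and 55459 (BMH-21 2), so a peak missing from a BMH-21 list has to be read against shorter lists. The deposited fold of a peak is its summit pileup over the expected background, each plus 1, and its median in a list lay between 4.33 and 4.61 in the 4 libraries. Pileup and local background were recovered from the deposited fold and p-value, and the median pileup was 33 to 35 in every list. The lowest recovered background of a list was taken as its genome-wide background. It was 4.54 in mock 1, 4.31 in mock 2, 4.46 in BMH-21 1 and 4.11 in BMH-21 2. Read counts were not used here, so sequencing depth is unknown, and its part in the list lengths was not tested. Of 15 pachytene spermatocyte marker genes, peaks lay within 1 kb of either end of the gene for 14, 14, 14 and 13 in mock 1, mock 2, BMH-21 1 and BMH-21 2. Ccna1 was the marker with no such peak in any library. Of 16 round spermatid markers, 11, 10, 9 and 10 had one. Of 8 macrophage markers, 6, 7, 1 and 1 had one, and C1qa, C1qc, Csf1r, Fcer1g and Tyrobp were those found in the mock libraries alone, in both of them. Sertoli cell markers had 7, 8, 5 and 5 of 10, Leydig and peritubular markers 6, 6, 3 and 3 of 9, and spermatogonial markers 7, 7, 5 and 6 of 10. Of markers in both mock libraries, 5 of 6 for macrophages and 3 of 6 for Leydig and peritubular cells were in neither BMH-21 library. For Sertoli cells it was 2 of 7 and for spermatogonia 1 of 6. Round spermatid markers had 1 of 9 and pachytene markers 0 of 14. Among all protein-coding genes the share was 11.5% (1735 of 15036). In the other direction, the Sertoli cell marker Rhox5 had a peak within 1 kb in both BMH-21 libraries and neither mock library. Among round spermatid markers, the starts of Izumo1 and Spaca7 were under a peak in both BMH-21 libraries and neither mock library. The start of Tssk2 showed the reverse. C1qa and C1qc are neighbours on chromosome 4. A peak at a marker is accessibility and not expression, and the part that other cells had in the results on the protamine genes was not tested.

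Prm1, Prm2, Prm3 and Tnp2 form a cluster on chromosome 16, all on the reverse strand. Prm1, which encodes the protamine used across mammals, occupies chr16:10796332-10796823 (gene ID 19118, 492 bp). Prm2, which encodes a protamine made as a longer precursor, occupies chr16:10791377-10792105 (gene ID 19119, 729 bp). Prm3, whose product is an acidic cytoplasmic protein of spermatids and not a DNA-packing protamine, occupies chr16:10790508-10790914 (gene ID 19120, 407 bp). Tnp2, which encodes transition protein 2, occupies chr16:10787935-10788655 (gene ID 21959, 721 bp). Going from Prm1 down the reverse strand, the transcript starts are 4718, 1191 and 2259 bp apart, and the whole cluster spans 8889 bp. Tnp1, which encodes transition protein 1, lies alone at chr1:73015074-73015899 on the reverse strand (gene ID 21958, 826 bp). The gene next to Tnp2 is Socs1, a suppressor of cytokine signalling with a role unrelated to sperm chromatin, at chr16:10783808-10785536 on the same strand.

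The 250 bases before each transcript start are shown because the peaks of Prm1, Prm2 and Prm3 cross these starts and because the letters show how little CpG the promoters hold. They were taken from RefSeq promoter windows of GRCm38.p6, all 6 genes matched, and each is written 5′ to 3′ on the gene's own reverse strand, ending at the base before the start. Prm1 is chr16:10796824-10797073, Prm2 is chr16:10792106-10792355, Prm3 is chr16:10790915-10791164, Tnp2 is chr16:10788656-10788905, Tnp1 is chr1:73015900-73016149, and the neighbour Socs1 is chr16:10785537-10785786. Capitals mark TGACNTCA on either strand, a form of the cAMP response element with 1 free base, and TATAA or TATATA on the gene's strand within the last 40 bases.
Prm1: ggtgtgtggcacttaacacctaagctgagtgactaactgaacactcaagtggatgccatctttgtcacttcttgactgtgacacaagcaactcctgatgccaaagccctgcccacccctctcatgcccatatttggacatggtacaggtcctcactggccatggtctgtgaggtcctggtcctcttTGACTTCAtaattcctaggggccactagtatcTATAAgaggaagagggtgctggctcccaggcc
Prm2: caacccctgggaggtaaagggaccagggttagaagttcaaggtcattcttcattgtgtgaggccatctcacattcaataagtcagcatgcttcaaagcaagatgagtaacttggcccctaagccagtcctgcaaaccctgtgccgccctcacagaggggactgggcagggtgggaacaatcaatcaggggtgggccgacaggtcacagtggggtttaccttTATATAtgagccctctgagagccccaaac
Prm3: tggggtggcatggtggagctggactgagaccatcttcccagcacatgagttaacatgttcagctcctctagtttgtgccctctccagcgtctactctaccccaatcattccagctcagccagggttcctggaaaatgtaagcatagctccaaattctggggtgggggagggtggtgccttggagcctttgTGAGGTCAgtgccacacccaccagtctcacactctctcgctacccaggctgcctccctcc
Tnp2: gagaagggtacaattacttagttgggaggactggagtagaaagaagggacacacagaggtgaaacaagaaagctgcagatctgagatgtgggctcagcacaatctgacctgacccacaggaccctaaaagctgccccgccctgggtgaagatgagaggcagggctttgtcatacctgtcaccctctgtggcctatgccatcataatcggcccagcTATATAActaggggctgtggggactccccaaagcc
Tnp1: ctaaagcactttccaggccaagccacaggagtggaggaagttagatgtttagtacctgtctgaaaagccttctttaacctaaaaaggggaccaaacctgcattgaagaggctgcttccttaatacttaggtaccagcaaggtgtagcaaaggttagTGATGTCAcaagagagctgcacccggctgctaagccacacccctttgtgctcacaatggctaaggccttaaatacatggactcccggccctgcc
Socs1: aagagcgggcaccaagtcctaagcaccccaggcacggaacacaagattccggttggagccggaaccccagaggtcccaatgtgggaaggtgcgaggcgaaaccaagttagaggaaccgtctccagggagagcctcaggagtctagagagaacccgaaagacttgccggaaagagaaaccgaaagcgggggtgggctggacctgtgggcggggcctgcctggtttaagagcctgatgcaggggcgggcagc

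All 5 promoters are poor in CpG. Prm1 has 0 CpG in its 250 bases, and Prm2, Prm3, Tnp1 and Tnp2 have 2 each, against 13 in Socs1. Among 32851 RefSeq mouse promoters, 7.87% have 0 CpG and 29.0% have 2 or fewer. Their GC content is 51.6% in Prm1, 52.8% in Prm2, 56.4% in Prm3, 53.2% in Tnp2 and 49.2% in Tnp1, against 61.2% in Socs1.

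Prm1, Prm2 and Tnp2 share a TATA-like stretch close to the start. Prm1 has TATAA 32 to 28 bases before the start, Prm2 has TATATA 29 to 24 bases before it, and Tnp2 has the overlapping TATATA and TATAA from 35 to 29 bases before it. Of all promoters, 4.70% have TATAA or TATATA in that 40-base window on the gene's strand. Prm3 and Tnp1 have neither word there. The stricter TATAAA, searched over the 250 bases on both strands, is in 12.4% of promoters and was found in Prm2 alone among the 5, on the opposite strand.

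Prm1, Prm3 and Tnp1 carry TGACNTCA, which 7.49% of promoters hold on either strand. In Prm1 it reads TGACTTCA, 64 to 57 bases before the start. Prm3 has it on the opposite strand, where the gene's strand reads TGAGGTCA, 60 to 53 bases before the start. Tnp1 also has it on the opposite strand, where the gene's strand reads TGATGTCA, 94 to 87 bases before the start. The full cAMP response element TGACGTCA, which TGACNTCA includes, is in 1.55% of promoters and the TGACG site it contains in 17.8%. Neither was found in the 5 windows, which says only that these letters are not in them. CCAAT (33.8% of promoters) was found in Prm3, and GGGCGG (32.7%) on the opposite strand in Prm2 and Tnp2. These matches describe letters and are not binding sites. TGACNTCA and the 40-base TATA search were chosen after the sequences had been seen.

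Prm1, Prm2 and Prm3 each had a peak of their own across the transcript start in both mock libraries, and no peak within 1 kb of either gene end in either BMH-21 library. Tnp2 had a peak inside the gene in mock 2 only. Tnp1 had no peak within 10 kb in any of the 4 libraries. In such bulk libraries, fewer cells with an accessible site and less access per cell cannot be told apart. The map of peaks over the gene cluster shows the mock peaks between Tnp2 and Prm1 and the empty BMH-21 lines above the same genes.

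**Figure D1:**
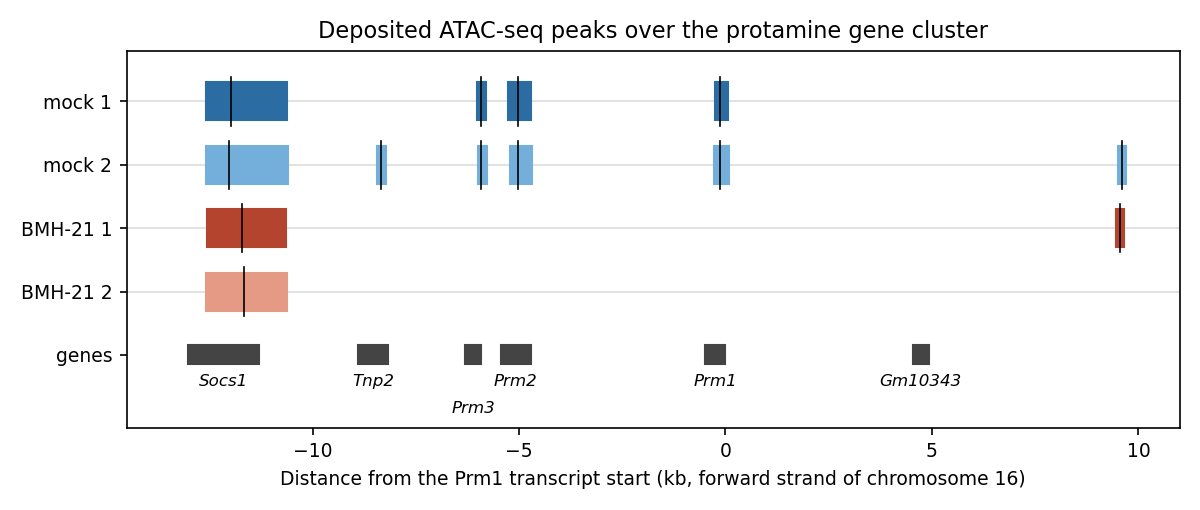
Deposited ATAC-seq peaks over the Prm1, Prm2, Prm3 and Tnp2 cluster, 1 line per library, with genes in grey; the x axis is the distance from the Prm1 transcript start in kb along the forward strand, boxes are peaks and black ticks their summits. Mock 1 has 3 peaks and mock 2 has 4 within the cluster, both BMH-21 libraries have 0, and the Socs1 peak at the left is in all 4.

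At Prm1, the mock 1 peak was chr16:10796559-10796876 (318 bp, fold 3.83, −log10 q 9.42), running from -53 to +264 bp of the start. The mock 2 peak was chr16:10796545-10796897 (353 bp, fold 5.00, −log10 q 15.5), running from -74 to +278 bp. Both peaks sat mostly downstream of the start, over 53.9% and 56.7% of the short gene, with summits at +141 and +124 bp. The recovered summit pileup was 34 over a local background of 8.14 in mock 1, and 41 over 7.40 in mock 2. Prm1 thus had the lowest pileup and the lowest background of the cluster in both mock libraries, and in mock 2 the highest fold. The nearest BMH-21 1 peak was 9448 bp away and the nearest BMH-21 2 peak 10136 bp away.

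At Prm2, the mock 1 peak was chr16:10791563-10792123 (561 bp, fold 3.97, −log10 q 23.4), from -18 to +542 bp of the start. The mock 2 peak was chr16:10791612-10792129 (518 bp, fold 3.72, −log10 q 18.0), from -24 to +493 bp. These were the widest peaks of the 5 genes, and they covered 74.5% and 67.8% of the gene. Their summits lay at +300 and +298 bp. Pileups were 84 and 70 over local backgrounds of 20.4 and 18.1. The nearest peak in the BMH-21 libraries was that of Socs1, 5188 and 5181 bp from the gene.

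At Prm3, the mock 1 peak was chr16:10790810-10791030 (221 bp, fold 2.82, −log10 q 12.5), from -116 to +104 bp of the start. The mock 2 peak was chr16:10790825-10791042 (218 bp, fold 2.66, −log10 q 9.46), from -128 to +89 bp. Unlike the other peaks of the cluster, these were nearly centred on the start, with both summits at +9 bp. Pileups were 74 and 62 over local backgrounds of 25.6 and 22.6, so a pileup close to that of Prm2 gave a lower fold. The nearest BMH-21 peaks, again at Socs1, were 4319 and 4312 bp away. The windows of 1 kb around Prm2 and Prm3 also catch each other's peaks, but both genes keep their calls on their own start-spanning peaks.

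At Tnp2, mock 2 had a peak at chr16:10788396-10788599 (204 bp, fold 1.93, −log10 q 6.41), lying wholly inside the gene from +56 to +259 bp. Mock 1 and both BMH-21 libraries had none there. Its pileup of 89 was the highest at any of the 5 genes, while its fold was the lowest, with a local background of 45.6, which is 10.6 times the genome-wide background of that list. In rank by fold it stood 117306 of 117905 mock 2 peaks.

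**Figure D2:**
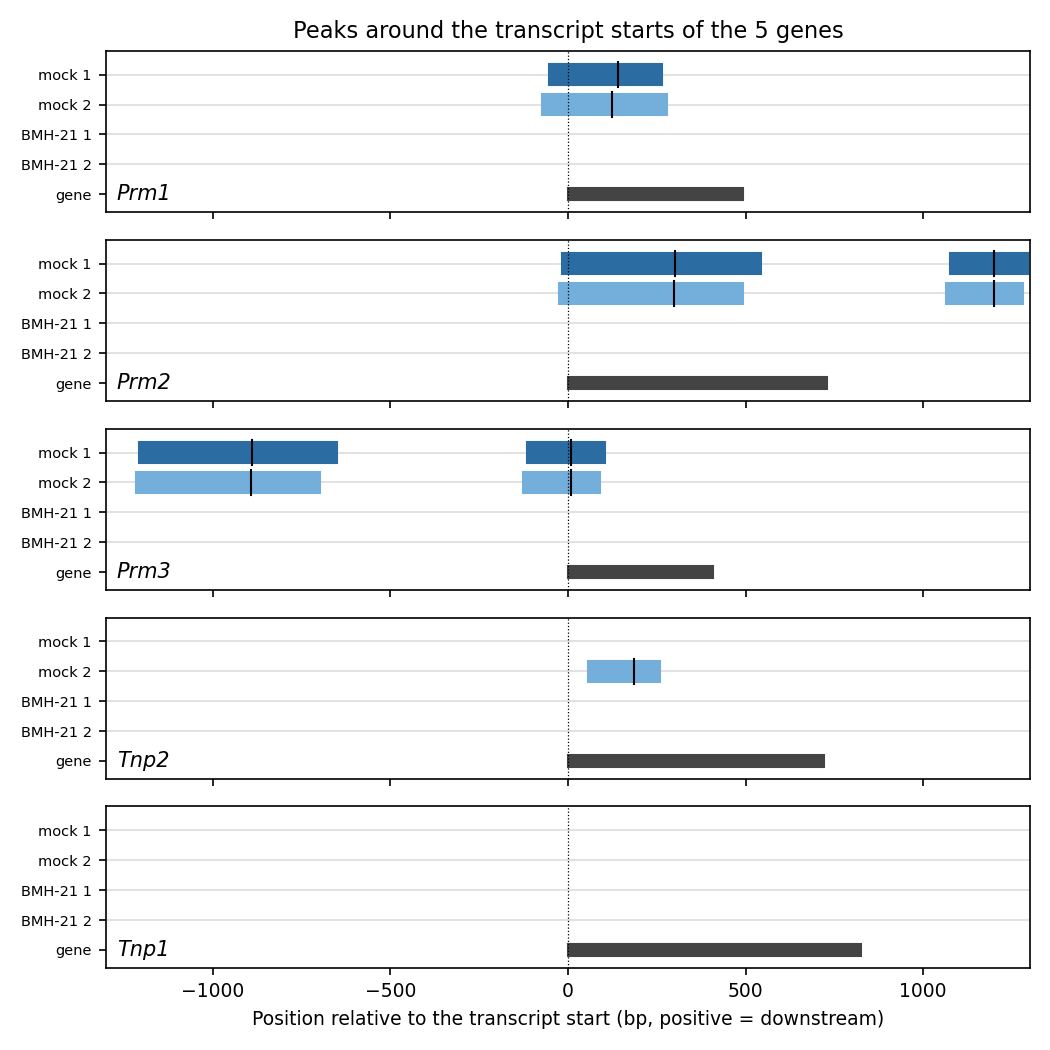
Peaks around the transcript starts of the 5 genes, drawn in the direction of transcription; the x axis is the position in bp from the start, boxes are peaks per library, black ticks are summits and grey bars are the genes. The Prm1, Prm2 and Prm3 peaks cross the start in both mock libraries, the Tnp2 peak of mock 2 lies inside the gene, and Tnp1 is empty; the second pair of boxes beside Prm2 and beside Prm3 belongs to the neighbouring gene.

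The summits of the 2 mock libraries fell close together: they differed by 17 bp at Prm1, 2 bp at Prm2 and 0 bp at Prm3. Over 88133 overlapping pairs of mock peaks the median distance between summits was 31 bp, with an interquartile range of 9 to 82 bp.

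Where the peaks stood in their lists depended on the measure. By fold, the 6 start-spanning peaks ranged from the percentile 6.49 (Prm3, mock 2) to 63.8 (Prm1, mock 2), with a median of 32.9. By −log10 q they ranged from 42.1 to 80.1 with a median of 62.7. By pileup they ranged from 48.1 to 86.4 with a median of 81.1. Each peak of Prm2 and Prm3 stood higher in its list by pileup than by fold. By fold, Prm2 (40.7) stood above Prm1 (36.0) in mock 1 and below it in mock 2 (29.9 and 63.8), and Prm3 was the lowest of the 3 in both.

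The local background rose from Prm1 to Tnp2 along the cluster, as the plot of pileup and background shows. In mock 2 it was 7.40 at Prm1, 18.1 at Prm2, 22.6 at Prm3, 45.6 at Tnp2 and 43.3 at Socs1, over a genome-wide background of 4.31. A peak caller that tests a pileup against its local background then asks for a higher pileup at each step. Under a Poisson model and each list's lowest deposited −log10 p (3.65 to 4.03), a pileup of 19 to 21 would have reached the list at the Prm1 background, 35 to 39 at Prm2, 41 to 46 at Prm3 and 71 to 73 at Tnp2. Among BMH-21 peaks whose local background was within 10% of these values, the lowest pileups in the 2 lists were 18 and 19 for Prm1, 35 and 38 for Prm2, 43 and 42 for Prm3, and 74 and 75 for Tnp2. At such backgrounds the BMH-21 lists thus held some peaks of lower pileup than those of the mock libraries at the protamine genes. The median pileups of these BMH-21 peaks were 34 and 35 for Prm1, 117 and 116 for Prm2, 125 and 123 for Prm3, and 109 and 105 for Tnp2. In the mock lists the medians were 35 and 36, 68 and 70, 77 and 78, and 105 and 107. The mock peaks at Prm2, Prm3 and Tnp2 lay below the BMH-21 medians. The background and pileup of the BMH-21 libraries at the protamine genes themselves were not in the lists, so how far they fell short of a call is unknown, and a missing peak is not closed chromatin.

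**Figure D3:**
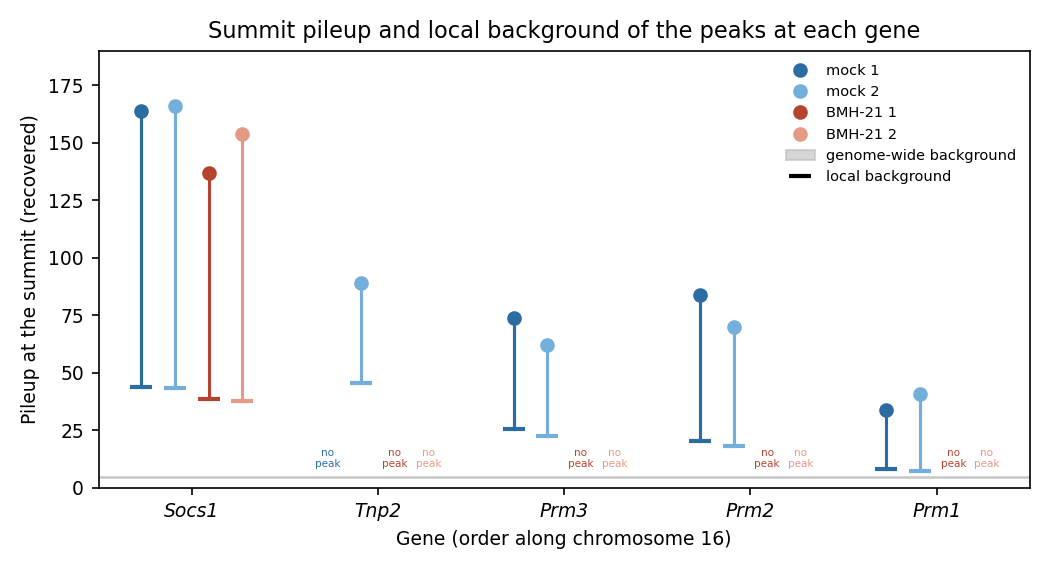
Recovered summit pileup (points) and local background (dashes) of the peak at each gene of the cluster and at Socs1, per library; the grey line is the genome-wide background. In mock 2 the background rises from 7.40 at Prm1 to 45.6 at Tnp2, and only Socs1 has peaks in the BMH-21 libraries.

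Socs1, whose start lies 3119 bp from that of Tnp2, had a peak across its start in all 4 libraries. The peaks were 1968, 1972, 1923 and 1945 bp wide in mock 1, mock 2, BMH-21 1 and BMH-21 2, with folds of 3.68, 3.77, 3.50 and 3.98. Pileups were 164, 166, 137 and 154. The BMH-21 fold values lay on both sides of the mock values, so the groups overlapped in fold at the gene beside the cluster. In unscaled pileup they did not, with both BMH-21 values below both mock values. As multiples of each list's genome-wide background, the pileups were 36.1, 38.5, 30.7 and 37.4 in the same order. On that scale BMH-21 2 lay between the mock libraries, so the groups overlapped.

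Bases under peaks were then counted over the cluster with 10 kb on each side, chr16:10777935-10806823 (28889 bp). Mock 1 had 3068 and mock 2 had 3465 covered bases, and BMH-21 1 had 2132 and BMH-21 2 had 1945. The groups did not overlap: the means were 3266.5 ± 281 and 2038.5 ± 132 bases (SD, n = 2 each), a difference of 1228. How often windows elsewhere separate in this way was not counted. The BMH-21 lists were shorter over the whole genome, so the separation is not a trait shown for this cluster alone. In an exact permutation test, two-sided, p was 0.333, the smallest value that this test can give for 2 libraries against 2, so it cannot pass a usual threshold here whatever the difference. Within the cluster itself, without flanks, mock 1 had 1047 and mock 2 had 1219 covered bases, and both BMH-21 libraries had 0. In the wider window the BMH-21 2 library had the Socs1 peak alone. BMH-21 1 had 1 further peak, chr16:10806271-10806479 (fold 2.88), which lay upstream of Prm1 and overlapped a mock 2 peak at chr16:10806329-10806528 (fold 3.70). When each list was cut to the 51234 peaks of highest fold, the difference turned to -1862 bases. This cut set unequal fold minimums: 4.49 and 4.67 in mock 1 and mock 2, and 1.55 and 2.94 in BMH-21 1 and BMH-21 2. The mock peaks at Socs1 and all peaks at the 5 genes but that of Prm1 in mock 2 fell below the mock minimums. The BMH-21 peaks at Socs1, with folds of 3.50 and 3.98, were kept.

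In counts over genes, 3 of the 5 had a peak within 1 kb in both mock libraries, and all 3 were without one in both BMH-21 libraries, a pattern here called mock-only. Among all annotated genes called in mock 1 and in mock 2 by the same rule, 19.5% (4351 of 22346) were mock-only, and among protein-coding genes 11.5% (1735 of 15036) were. With the start itself under a peak, the count of members stayed at 3 and the protein-coding share was 10.2% (1094 of 10732). The 3 genes lie in 1 cluster and are not independent of each other, so their count is a description. Over autosomal peak regions instead of genes, 63.7% of the regions found in both mock libraries (44738 of 70241) were mock-only.

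Window and list length changed the count. Within 10 kb, 0 of the 5 genes were mock-only, since the Socs1 peak or the peak upstream of Prm1 then counted for the cluster in the BMH-21 libraries. The protein-coding share was 7.78% (1378 of 17712). For Prm1 this rested on the BMH-21 1 peak at 9448 bp, and without that library Prm1 was mock-only. With lists of equal length the count within 1 kb was 0 by fold and 2 (Prm2 and Prm3) by −log10 q or by pileup. Without mock 1 it was 4, with Tnp2 added.

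The low CpG count of these promoters went with how often starts were under peaks. Among protein-coding genes with a promoter entry, the start was under a peak in both mock libraries in 61.4% (10732 of 17491). Of genes with at most 2 CpG it was in 4.24% (165 of 3891), a class that holds all 5 members, with Prm1, Prm2 and Prm3 among the 165 and Tnp1 and Tnp2 outside them. Of those 165 genes, 57% (94) were mock-only. The share of mock-only starts fell from 58.8% (47 of 80) with 0 to 1 CpG to 55.6% with 2 to 3, 38.5% with 4 to 6, 15.0% with 7 to 12, 5.81% with 13 to 20 and 3.53% with 21 to 56. Prm1, Prm2 and Prm3 thus belong to the promoter classes in which most starts called in mock had no peak after BMH-21.

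**Figure D4:**
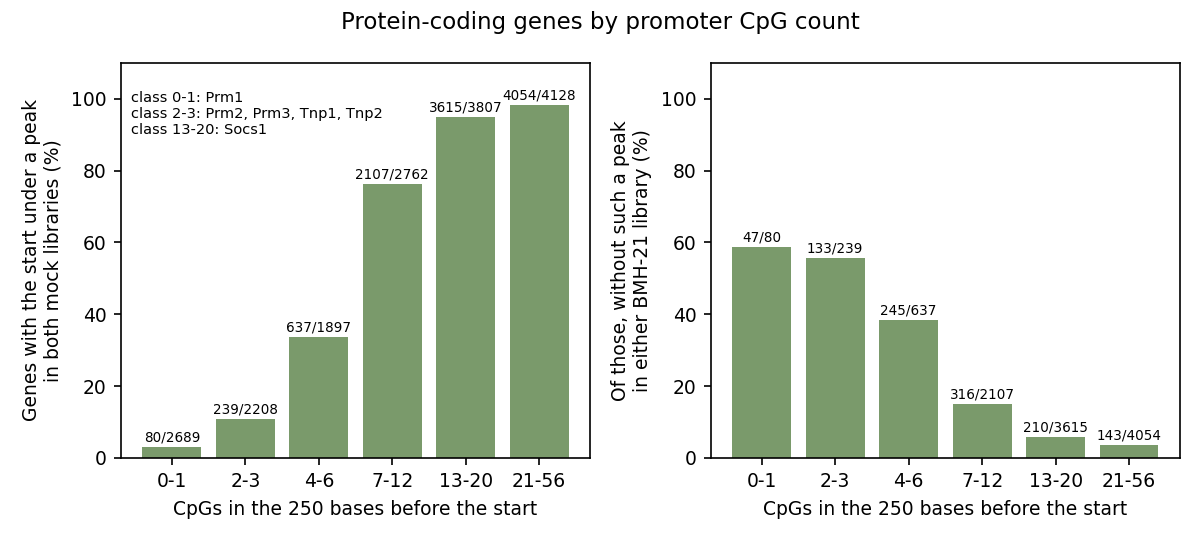
Protein-coding genes by the number of CpGs in the 250 bases before the start (x axis); the left panel gives the percent of genes with the start under a peak in both mock libraries, the right panel the percent of those without such a peak in either BMH-21 library, with counts above the bars. The members fall in the classes 0-1 and 2-3, where few starts are under a peak in mock (2.98% and 10.8%) and the mock-only share is highest (58.8% and 55.6%).

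The strength of the mock peaks was also compared. Of 890 protein-coding genes whose strongest peak within 1 kb had a mean mock fold percentile between those of Prm2 (35.3) and Prm1 (49.9), 29.8% (265) were mock-only. This range does not reach the peaks of Prm3 itself, at the percentiles 9.73 and 6.49, since its strongest peak within 1 kb is that of Prm2. By likeness of fold percentile over the 4 libraries, as the sum of the 4 absolute differences, the genes nearest to Prm1 were Nfam1 (0.914), Fkbp6 (2.42) and Nfil3 (3.59), and those nearest to Prm2 were Calhm1 (1.39), Tspear (1.66) and Serinc2 (1.91). Since both members count as 0 in the BMH-21 libraries, this measure favours genes without a BMH-21 peak, and that they lack one is no finding. For Tnp1, 5776 protein-coding genes tied at 0, so none is named.

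Tnp1 differed from the cluster in having nothing near it. The closest mock peaks were 36025 and 36073 bp away, at chr1:73051924-73052161 (fold 4.33) and chr1:73051972-73052507 (fold 3.39). In both BMH-21 libraries the closest peak was 124449 bp away. No peak within 10 kb in any library was found for 15.6% of protein-coding genes (3410 of 21883), so Tnp1 shares this with many genes. The long noncoding RNA gene 1700027A15Rik, 137 bp from Tnp1 on the forward strand, also had no peak within 1 kb.

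The other genes of the histone-to-protamine exchange were taken from a list of 50. Of these, 41 had a peak within 1 kb in both mock libraries, 38 had one in all 4, 1 was mock-only, 0 were in BMH-21 only and 8 had none. Of all 21883 protein-coding genes, 57.9% (12675) had a peak within 1 kb in all 4 libraries and 26.5% (5797) had none. The single mock-only gene, H1f7, encodes a linker histone of spermatids. Its start was under a peak in mock 1 (1136 bp, fold 6.77, pileup 40) and mock 2 (1186 bp, fold 7.72, pileup 40), and its promoter has 3 CpG. That is 1 of 41 against 11.5% of all protein-coding genes, while the 3 protamine genes called in both mock libraries were all mock-only. The promoters differ in CpG: of the 41 list genes, 36 had a promoter entry, with a median of 22 CpG (the richest promoter of each gene), and 28 of these had at least 13 and 1 had at most 2. The mock-only share of starts was 5.81% or less in the classes from 13 CpG up and 57% at 2 or fewer, so the list and the protamine genes are not matched.

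The sublists were then read by role. Of 11 spermatid histone variants, 5 had peaks in all 4 libraries, H1f7 was mock-only, H3f3b had a mixed pattern, and Hils1, H2al1a, H2al2a and H2bl1 had no peak in any library. Among 11 transcription regulators of the haploid program, 10 had peaks in all 4 libraries, including Crem, an activator of post-meiotic genes, Kif17, Tbpl1 and Taf7l. Fhl5, a partner of Crem, had none. Of 8 genes for RNA storage and translation, 6 had peaks in all 4, among them Ybx2, which binds stored protamine mRNA, Tarbp2 lacked one in BMH-21 1 and Eif4g3 had none. Of 14 genes for histone removal and acetylation, 13 had peaks in all 4, among them Brdt, the testis bromodomain protein, Chd5 and Rnf8, and Nutm1 had none. Of 6 protamine kinases and modifiers, 4 had peaks in all 4, Padi4 lacked one in BMH-21 2 and Camk4 had none. Distances are to the annotated gene ends, so a start inside a gene is not counted. Ccna1 and Eif4g3, listed here without a peak, and H3f3b and Tarbp2, listed here with a peak in some libraries, have an annotated start under a peak in all 4 libraries.

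**Figure D5:**
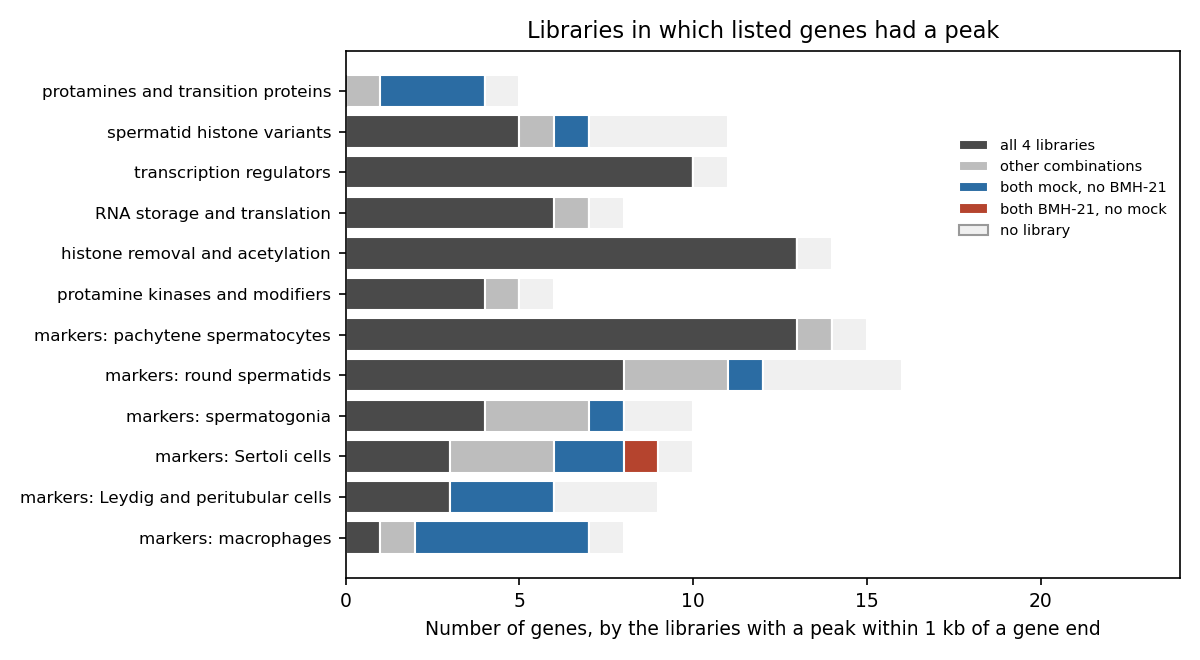
Number of genes on each list by the libraries with a peak at most 1 kb from either end: all 4, both mock and no BMH-21, both BMH-21 and no mock, other combinations, or none. The protamine and transition protein bar has 3 of 5 genes in mock only and none in all 4 libraries, the lists of regulators and histone removal factors are almost wholly in all 4, and 5 of 8 macrophage markers are mock-only.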

How the data were processed

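ATAC-seq libraries of pachytene spermatocytes (2 mock, 2 BMH-21) were analysed from 1 peak list each. Tools listed in the submitters' processing notes are MACS2 2.1.0, Bowtie2, fastp, deepTools and bedtools, with the builds mm39 and mm10. Their settings are not given in the sources used here. Coordinates were read as mm10, because the last chromosome 1 peaks end at 195371768 to 195371813, past the length it has in mm39. The authors deposited, per the file layout, a display score (10 times the −log10 q, cut to whole numbers), the fold over background as a ratio, −log10 p-values and −log10 q-values, and the summit offset of each peak. Pileup and local background were recovered from the deposited fold and −log10 p as the whole pileup that gives both under a Poisson model, with an error of at most 0.0008 in −log10 p.

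A gene had a peak where at least 1 bp of one lay within 1 kb (or 10 kb) of either gene end, and had its start spanned where a peak covered it. Genes, starts and promoters came from RefSeq tables of GRCm38.p6. Calls are presence or absence, with no test. Covered bases were compared by an exact permutation test. The members and lists were chosen with earlier results of these data known. Named genes were the 5 members, genes within 100 kb of them, list genes that were mock-only with up to 4 per sublist found in all 4 libraries, and the 3 genes most like Prm1 and Prm2. Alternatives covered windows, a −log10 q minimum of 5, equal list lengths, summit windows and leaving out each library. Scripts were tested on simulated data. Python 3.11.15, numpy 2.4.6, pandas 2.3.3 and scipy 1.17.1 were used.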

Additional observations from a re-analysis of the deposited data

How the results depend on the processing

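The difference in covered bases over the cluster with 10 kb flanks kept its direction in 8 of 9 alternatives and reversed to -1862 with lists of equal length by fold. Both mock values lay above both BMH-21 values, so leaving out a library or blocking by replicate number could not turn the direction. Of the settings that could, a −log10 q minimum of 5 (1332.5), no flank (1133) and a 50 kb flank (4832) kept it. Leaving out each library gave 1029.5 to 1426.5 bases. With the replicate number as a block, the paired differences were 936 and 1520 bases, the mean stayed 1228 and the exact sign-flip p was 0.5; the labels do not say that a number pairs libraries. The count of mock-only members within 1 kb moved from 3 to 0 with equal list lengths by fold and stayed between 2 and 4 in the other 12 settings. Leaving out a library can only add mock-only genes and never remove one, here and in the counts below, so those settings could not lower a count. Within 10 kb it moved from 0 to 1 with a −log10 q of at least 5, and was 0 to 1 when each library was left out. The count of mock-only genes on the list of 50 moved from 1 to 2 with a window of 500 bp (Kat5), to 2 with 2.5 kb (Hils1), to 2 with summit windows (Taf7l) and to 3 with a −log10 q of at least 5 (Padi4, Tarbp2), and was 1 to 2 over the left-out libraries; H1f7 was called in each of the 13 settings.

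The share of all genes that were mock-only moved from 19.5% to 11.2% with equal list lengths by fold, 11.2% by −log10 q, 11.6% by pileup, 11.9% for spanned starts, 11.5% for protein-coding genes and 42.8% for protein-coding genes with at most 2 promoter CpG, and stayed between 13.4% and 23.0% in 10 others. The median percentile of the 6 start-spanning member peaks moved from 32.9 by fold to 62.7 by −log10 q and 81.1 by pileup. Equal list lengths by −log10 q or pileup, spanned starts and the CpG class were chosen after seeing the data. A missing peak cannot separate lower accessibility from lower depth or a higher background, and the exact permutation test of 2 libraries against 2 allows no p below 0.333.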

Other observations

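Peaks were also fewer around the cluster in the BMH-21 lists, which were shorter over the whole genome. Within 100 kb of the cluster, 47 peak regions were found, of which mock 1 had 35, mock 2 had 34, BMH-21 1 had 9 and BMH-21 2 had 4. Of the 25 regions in both mock libraries, 20 were in neither BMH-21 library, 4 were in all 4 libraries and 1 was also in BMH-21 1. Over the autosomes, 63.7% of the regions in both mock libraries (44738 of 70241) were in neither BMH-21 library. Of all 47, 0 were in both BMH-21 libraries only. Covered bases over that window were 15201 in mock 1, 14198 in mock 2, 4539 in BMH-21 1 and 3458 in BMH-21 2. The regions in all 4 libraries were chr16:10752109-10752411, the Socs1 peak and a pair at Rmi2, which encodes a subunit of a DNA repair complex. The stronger Rmi2 region, chr16:10834871-10835750, had folds of 10.4, 9.71, 5.91 and 5.82 in mock 1, mock 2, BMH-21 1 and BMH-21 2, so both BMH-21 values were below both mock values. The BMH-21 folds were also below both mock folds (2.84 and 3.08) at the other Rmi2 region, and above both at chr16:10752109-10752411 (2.87 and 3.37 in mock, 4.05 and 3.94 in BMH-21). Clec16a, Socs1, Rmi2 and the pseudogene Gm17913 had a peak within 1 kb in all 4 libraries, and the pseudogene Gm10343, 4530 bp from the cluster, had none.

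Around Tnp1, 4 regions were found within 100 kb, all in mock 1, 3 of them also in mock 2 and 0 in either BMH-21 library. For the 3 in both mock libraries, the autosomal share of mock-only regions is again 63.7%. None of the 7 annotated genes in that window, Tnp1 included, had a peak within 1 kb in any library.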
